A study of Homo sapiens with 20 samples.

Results

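miR-34a is a microRNA, a short RNA of the kind that guides Argonaute proteins to messenger RNAs and lowers their output. Its 2 mature arms, miR-34a-5p and miR-34a-3p, were picked by name from the 2588 mature miRNAs counted in each of 20 small RNA sequencing libraries. The libraries came from HCT116, a human colon cancer cell line, and HEK293E, a line of human embryonic kidney cells, and fall into 8 groups. In cells with a DROSHA knockout (KO), p140 was put back in 3 libraries and full-length DROSHA in 3 libraries of each line. p140 is a shorter form of the enzyme that lacks the proline-rich disordered domain named in the study's title. Wild-type (WT) HCT116 cells grown for 72 hr with 0.1% fetal bovine serum (FBS), which the labels call starvation, gave 3 libraries, and those grown for 72 hr with 9.1% FBS gave another 3. HCT116 KO cells expressing GFP gave 1 library, and untreated WT HCT116 cells gave 1. All p140 and full-length groups thus share the KO background and a DROSHA supplied from outside. The labels do not say how many KO clones were used, or whether replicates were separate cultures, so the p-values measure the spread between these libraries, which may be technical.

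DROSHA cuts the hairpin of a miRNA out of its primary transcript in the nucleus. DICER then cuts off the loop, and one arm of the resulting duplex usually becomes the guide, which for miR-34a is the 5p arm. The gene is best known as a direct transcriptional target of p53, the tumour suppressor, and known targets of the miRNA include mRNAs of cell cycle and survival proteins. HCT116 is known to carry wild-type p53, whereas p53 in HEK293 lines is held inactive by adenoviral proteins. A few miRNAs do not need DROSHA, among them miR-320a, miR-484 and the mirtrons, whose hairpins are made by splicing.

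The sequences below, from RefSeq on GRCh38.p14, are given because the seed (bases 2 to 8, in capitals) sets which mRNAs a miRNA pairs with and which miRNAs count as relatives of miR-34a. Coordinates match those in the deposited tables, and both arms lie on the minus strand of chromosome 1, miR-34a-5p at chr1:9151735-9151756 and miR-34a-3p at chr1:9151693-9151714.
miR-34a-5p: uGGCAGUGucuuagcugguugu
miR-34a-3p: cAAUCAGCaaguauacugcccu
miR-449a: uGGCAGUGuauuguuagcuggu
miR-449b-5p: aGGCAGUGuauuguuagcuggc
miR-449c-5p: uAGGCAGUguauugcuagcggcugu
miR-34b-5p: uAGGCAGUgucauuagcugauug
Of the sequences printed, miR-449a and miR-449b-5p have the seed of miR-34a-5p, which miR-34c-5p is also known to share. In miR-34b-5p and miR-449c-5p the same letters begin 1 base later. The 3p arm has another seed.

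The hairpin itself is printed next with both arms in capitals, the 5p arm at bases 22 to 43 and the 3p arm at bases 64 to 85, since the arms are read against each other further on.
miR-34a hairpin: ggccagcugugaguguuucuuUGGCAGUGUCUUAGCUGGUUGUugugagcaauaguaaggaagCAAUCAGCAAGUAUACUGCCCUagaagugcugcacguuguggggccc
It spans 110 bases at chr1:9151668-9151777. In GENCODE 29 it lies in the gene MIR34AHG, a long non-coding RNA, within exon 2 of the 2 exons of transcript MIR34AHG-204. That exon is 3825 bases long, and the hairpin begins 58 bases from its 5′ end. Of 4 annotated transcripts of the gene, only this 1 spans the hairpin. The annotation therefore places miR-34a in an exon of its host transcript and not in an intron, the hairpin class named in the study's title.

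Libraries held between 38288 and 2822317 miRNA reads. The KO library with GFP was the shallowest, the HCT116 libraries held 305603 to 327011 reads with p140 and 764014 to 873717 with full-length DROSHA, and the serum libraries held 1745625 or more. Reads of DROSHA mRNA were not part of these tables, but miRNAs made without DROSHA took 69.7% of reads in the KO library with GFP and 1.27% in untreated WT cells. They took 7.05% to 21.0% with p140 and 2.74% to 4.98% with full-length DROSHA in HCT116, and 15.5% to 20.0% with p140 and 10.6% to 12.3% with full-length DROSHA in HEK293E. The rescued HCT116 libraries stood apart from the other libraries of that line in the miRNAs that mark epithelial cells. miR-200c-3p, miR-141-3p, miR-200b-3p and miR-200a-3p summed to 169 to 213 reads per 1000000 miRNA reads (CPM) with p140 and 272 to 341 CPM with full-length DROSHA. The same sum was 4780 CPM in the KO library with GFP, 48015 to 50336 CPM in 0.1% FBS, 38275 to 42574 CPM in 9.1% FBS and 46151 CPM in untreated WT cells. Within the HCT116 rescue groups and the serum groups, the libraries numbered 3 differed most from the others of their group, and results are given with and without them where that changes a call.

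miR-34a-5p was found in all 20 libraries, and among the replicated groups its CPM was highest in rescued HCT116 cells and lowest in WT cells in 9.1% FBS. It averaged 6799 ± 1416 CPM in HCT116 KO cells with p140 and 4422 ± 440 CPM in those with full-length DROSHA (SD, n = 3 each). In HEK293E KO cells it averaged 2764 ± 1073 CPM with p140 and 2326 ± 763 CPM with full-length DROSHA (SD, n = 3 each). WT HCT116 cells averaged 3852 ± 877 CPM in 0.1% FBS and 1604 ± 723 CPM in 9.1% FBS (SD, n = 3 each). The single libraries had 679 CPM in KO cells with GFP, from 26 reads, and 2324 CPM in untreated WT cells, from 1991 reads. The exact (Clopper-Pearson) 95% intervals of these 2 values, which cover counting error only, were 444 to 995 CPM and 2223 to 2428 CPM.

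Ordered by mean CPM, the groups ran from HCT116 with p140 through HCT116 with full-length DROSHA, WT in 0.1% FBS, HEK293E with p140, HEK293E with full-length DROSHA, untreated WT and WT in 9.1% FBS to KO with GFP. Only at the ends did neighbours in this order not overlap. The lowest HCT116 library with p140 lay above the highest with full-length DROSHA, and the KO library with GFP, interval included, lay below the lowest 9.1% FBS library. Among the groups in between, each overlapped its neighbour. This order belongs to the CPM scale. Per 1000 reads of miRNAs made without DROSHA, miR-34a-5p averaged 58.4 ± 46.7 reads with p140 and 118 ± 53.3 with full-length DROSHA in HCT116, and 15.9 ± 6.53 with p140 and 20.4 ± 5.01 with full-length DROSHA in HEK293E (SD, n = 3 each). On that scale WT HCT116 cells had 348 ± 160 reads in 0.1% FBS and 173 ± 108 in 9.1% FBS (SD, n = 3 each). Among the replicated groups, both serum groups thus had higher means than both rescued HCT116 groups, and HEK293E the lowest. Libraries in 9.1% FBS (102 to 297) overlapped those with full-length DROSHA in HCT116 (83.5 to 180). The single libraries had 184 in untreated WT cells and 0.974 in KO cells with GFP, the lowest of all. In rank by reads, miR-34a-5p was placed 25 to 32 among the miRNAs of the HCT116 libraries with p140 and 61 to 85 in those in 9.1% FBS.

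miR-34a-3p was far less abundant, at 35.0 to 185 CPM in the 19 libraries in which it had a read. Group means were 171 ± 8.55 CPM with p140 and 164 ± 17.99 CPM with full-length DROSHA in HCT116, and 99.4 ± 42.6 CPM with p140 and 107 ± 12.5 CPM with full-length DROSHA in HEK293E (SD, n = 3 each). In WT HCT116 cells they were 140 ± 12.9 CPM in 0.1% FBS and 84.4 ± 13.3 CPM in 9.1% FBS (SD, n = 3 each). Untreated WT cells had 35.0 CPM from 30 reads, the lowest level of any library with a read. The KO library with GFP had 0 reads, for which a floor of 3 reads is 78.4 CPM and the exact 95% upper bound is 96.3 CPM, so that a level as high as in untreated WT cells was not detectable there. By mean, the order was that of miR-34a-5p except that HEK293E with full-length DROSHA came before HEK293E with p140 and WT in 9.1% FBS before untreated WT. Neighbours did not overlap between 0.1% FBS and HEK293E with full-length DROSHA, nor between 9.1% FBS and untreated WT, and the other replicated neighbours did. Reads of this arm were few in HEK293E, 15 to 31 per library, and 50 to 428 in the replicated HCT116 groups.

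**Figure D1:**
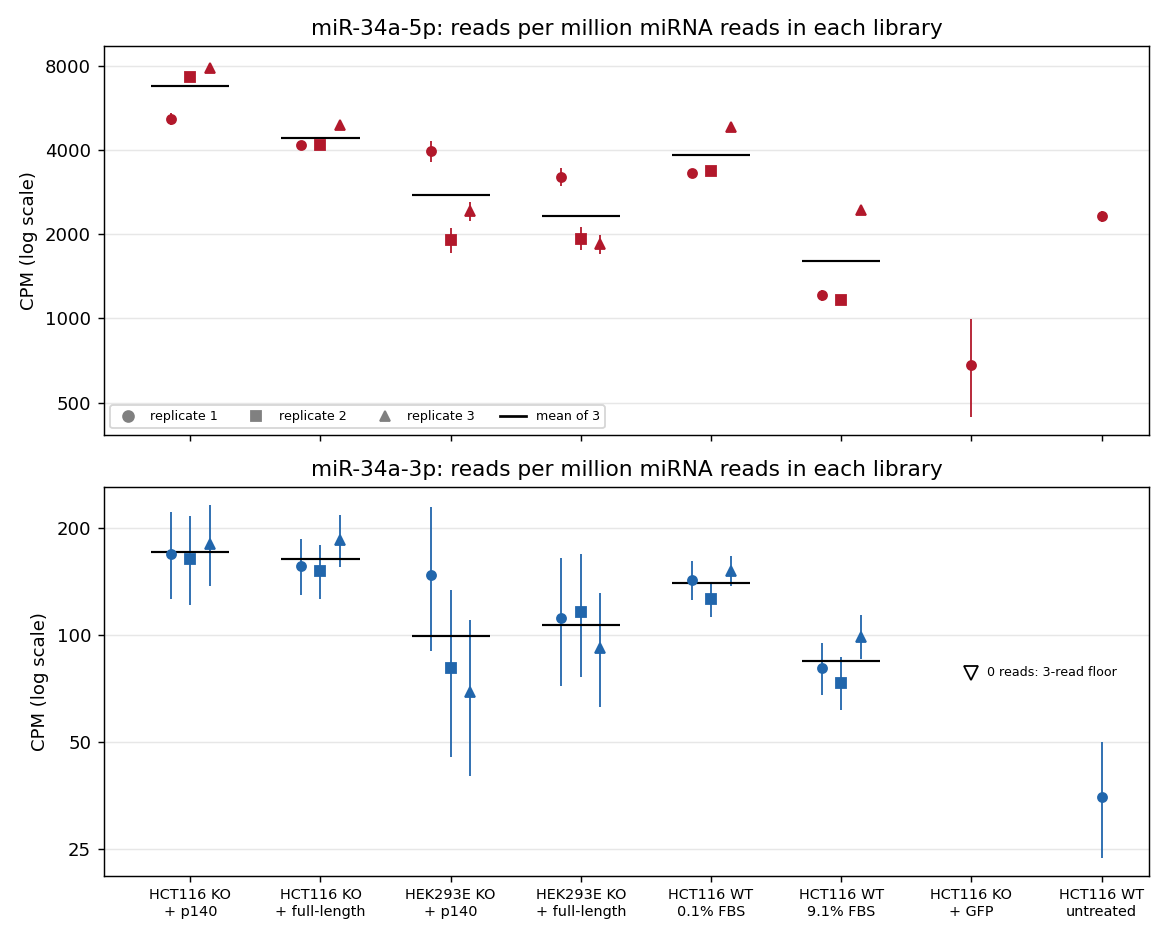
Level of each miR-34a arm (CPM, log axis) in every library of the 8 groups; symbols mark the replicate number, vertical lines the exact (Clopper-Pearson) 95% binomial interval of the reads, and horizontal bars the mean of 3 libraries. For miR-34a-5p, HCT116 KO cells with p140 reach 7868 CPM and the KO library with GFP lies lowest at 679 CPM, while the open triangle for miR-34a-3p marks the floor of 3 reads, 78.4 CPM, of a library with 0 reads.

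The serum comparison asked how miRNAs of WT HCT116 cells differ between starvation and full serum. Both arms of miR-34a were higher under starvation. miR-34a-5p had 3327, 3364 and 4864 CPM in 0.1% FBS, against 1209, 1164 and 2437 CPM in 9.1% FBS. The lowest starved library lay above the highest serum-fed one, and in both groups the library numbered 3 was the highest. The fold change, fitted with edgeR's quasi-likelihood test on counts scaled by TMM (trimmed mean of M-values), was 1.67 ± 0.30 on the log2 scale (SE) with an adjusted p of 0.0024. In bulk RNA of this kind, more molecules per cell and more of the cells that carry them cannot be told apart.

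miR-34a-3p showed the same direction from far fewer reads. It had 143, 126 and 152 CPM in 0.1% FBS, against 80.8, 73.3 and 99.1 CPM in 9.1% FBS, again with no overlap and in every pair of replicates. Its log2 fold change was 1.14 ± 0.16 (SE), with an adjusted p of 0.00069 in edgeR's test. Differences were widespread in this comparison, in which 45.8% of the 577 miRNAs tested were called at an adjusted p under 0.05, 25.5% as higher and 20.3% as lower. Groups failed to overlap in the upward direction for 15.4% of them. By size, 18 of the 577 miRNAs had a higher log2 fold change than miR-34a-5p, and 42 had a higher one than miR-34a-3p.

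**Figure D2:**
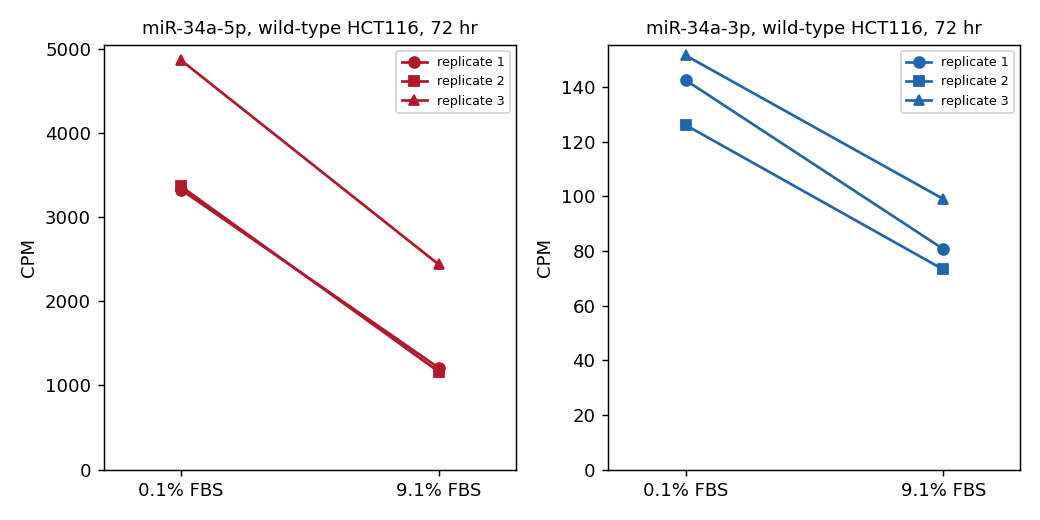
Level of miR-34a-5p (left) and miR-34a-3p (right), in CPM on linear axes from 0, in WT HCT116 cells in 0.1% and 9.1% FBS for 72 hr; lines join libraries with the same replicate number. The 0.1% FBS library is the higher one in all 3 pairs of both panels, and replicate 3 is the highest in each group.

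The size of the serum difference rests on the scaling. With library totals in place of TMM it was 1.26 for miR-34a-5p (adjusted p = 0.0078) and 0.73 for miR-34a-3p (adjusted p = 0.0051) in edgeR's test, while the median of all miRNAs moved to -0.44. Scaled to the miRNAs made without DROSHA, the median moved to -0.66 and the arms gave 1.01 (adjusted p = 0.10) and 0.50 (adjusted p = 0.19), and neither was called. A change of scaling moves all miRNAs together, so the distance of the arms from that median was nearly the same on every scale. Without the libraries numbered 3 the values were 1.93 for miR-34a-5p and 1.23 for miR-34a-3p, and both arms were called with any 1 library left out. Markers of blood cells, 6 miRNAs, summed to 187 to 210 CPM in 0.1% FBS and 55.6 to 76.8 CPM in 9.1% FBS. They did not move together. miR-486-5p had 99.6, 95.2 and 62.4 CPM in 0.1% FBS, against 12.6, 11.8 and 9.86 CPM in 9.1% FBS. miR-142-3p and miR-142-5p were also higher without overlap, miR-451a with overlap. miR-150-5p went the other way, with 3.96, 2.47 and 1.77 CPM in 0.1% FBS, against 6.30, 7.49 and 5.71 CPM in 9.1% FBS. miR-223-3p was also lower, at 1.13, 2.06 and 0.71 CPM against 4.58, 9.09 and 3.11 CPM. Reads of both were few, 2 to 17 per library. The part of these markers in the result was not tested.

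The p140 comparison asked what the shorter enzyme does to miRNA levels where it replaces full-length DROSHA. In HCT116 KO cells, miR-34a-5p was modestly higher with p140 and miR-34a-3p did not pass the test. miR-34a-5p had 5193, 7336 and 7868 CPM with p140, against 4163, 4174 and 4931 CPM with full-length DROSHA. The p140 library numbered 1 exceeded the highest full-length library by little, and the other two stood well above. The log2 fold change was 0.53 ± 0.17 (SE), with an adjusted p of 0.029 in edgeR's test. That call is one among many, since 59.6% of the 446 miRNAs tested were called, 28.5% as higher and 31.2% as lower, and 32.7% did not overlap in the upward direction. A higher fold change than that of miR-34a-5p was seen for 135 of the 446.

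The call for miR-34a-5p in HCT116 was also not firm. It was lost without the full-length library numbered 1 (log2 fold change 0.42, adjusted p = 0.14), 2 (0.45, adjusted p = 0.13) or 3 (0.49, adjusted p = 0.067). It was also lost without the p140 library numbered 2 (0.46, adjusted p = 0.096) or 3 (0.36, adjusted p = 0.067). It held without the p140 library numbered 1, at 0.66 (adjusted p = 0.016 in edgeR's test), and without both libraries numbered 3, at 0.48 (adjusted p = 0.0015). In each group the libraries numbered 1 and 2 were the closest pair, so little spread was left in that last fit. With libraries left out, between 184 and 388 miRNAs were called in this comparison, beside 266 with all libraries. On the scale of miRNAs made without DROSHA the sign turned, to -1.02 (adjusted p = 0.26), with the median of all miRNAs at -1.63. miR-34a-5p thus lay above the median of the tested miRNAs. A change of scaling moves all miRNAs together, so this place on the other scale is no separate observation. Whether miR-34a-5p rose or fell depended on the scale.

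miR-34a-3p had 169, 164 and 180 CPM with p140, against 156, 151 and 185 CPM with full-length DROSHA in HCT116. The groups overlapped, and the log2 fold change was -0.03 ± 0.22 (SE), with a 95% interval of -0.53 to 0.47 and an adjusted p of 0.92 in edgeR's test. Its sign differed between scalings, so no direction can be given. The p140 values rest on 52, 50 and 59 reads, against 124, 132 and 141 reads with full-length DROSHA.

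In HEK293E KO cells neither arm passed the test. miR-34a-5p had 3968, 1907 and 2419 CPM with p140, against 3206, 1932 and 1840 CPM with full-length DROSHA. The groups overlapped almost entirely, and the libraries numbered 1 were the highest of both. The log2 fold change was 0.31 ± 0.29 (SE), with a 95% interval of -0.34 to 0.97 and an adjusted p of 0.49 in edgeR's test. With the replicate number as a block, which the check of pairing allowed, the same fold change of 0.31 had an SE of 0.13 and an adjusted p of 0.035. The background was 26.4% of 416 miRNAs called, 5.29% as higher and 21.2% as lower. On the scale of miRNAs made without DROSHA the value was -0.36 (adjusted p = 0.29), so the direction was not settled here either. The epithelial markers summed to 134 to 148 CPM with p140 and 196 to 253 CPM with full-length DROSHA in HEK293E, and the blood cell markers to 111 to 281 CPM with p140 and 455 to 953 CPM with full-length DROSHA. Most of the blood cell sum was miR-486-5p, with 104, 227 and 191 CPM with p140, against 419, 919 and 628 CPM with full-length DROSHA. The part of these markers in the result was not tested.

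miR-34a-3p had 148, 81.0 and 69.1 CPM with p140, against 111, 116 and 92.3 CPM with full-length DROSHA in HEK293E. The p140 libraries bracketed all of the full-length ones. With 15 to 31 reads per library the log2 fold change was -0.06 ± 0.35 (SE), its 95% interval ran from -0.84 to 0.71, and the adjusted p was 0.91 in edgeR's test. Differences within that interval, in either direction, cannot be set aside with these libraries.

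Whether p140 acted differently on miR-34a in the lines was tested as an interaction. The HEK293E effect minus the HCT116 effect was -0.27 ± 0.37 on the log2 scale for miR-34a-5p (SE, 95% interval -1.05 to 0.51, adjusted p = 0.78 in edgeR's test). For miR-34a-3p it was -0.10 ± 0.39 (SE, 95% interval -0.92 to 0.73, adjusted p = 0.97 in edgeR's test). Of 515 miRNAs tested, 3.3% were called. The call for miR-34a-5p in HCT116 without one in HEK293E is therefore not shown to be a difference between the lines.

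**Figure D3:**
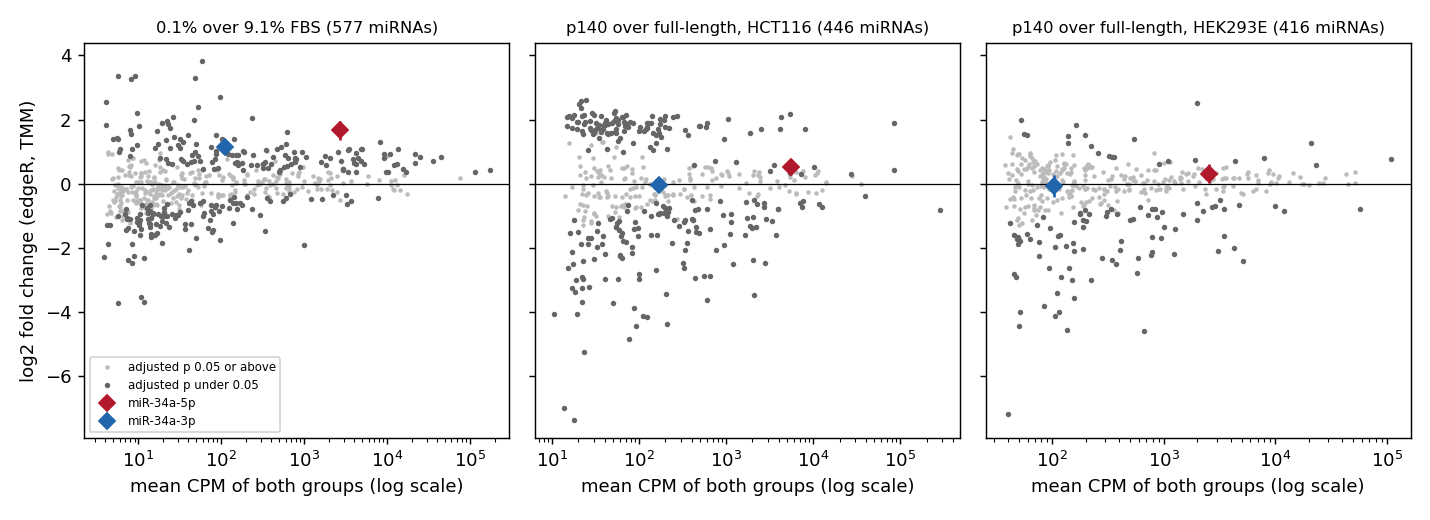
Log2 fold change (edgeR, TMM) of every tested miRNA against its mean level in both groups (CPM, log axis), for 0.1% over 9.1% FBS, p140 over full-length DROSHA in HCT116, and the same in HEK293E; dark points have an adjusted p under 0.05 and diamonds are the arms of miR-34a with their SE. In the serum panel both diamonds lie among the upper points, at 1.67 and 1.14, whereas in the p140 panels they lie near the bulk of the points, at 0.53 and -0.03 in HCT116 and at 0.31 and -0.06 in HEK293E.

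**Figure D4:**
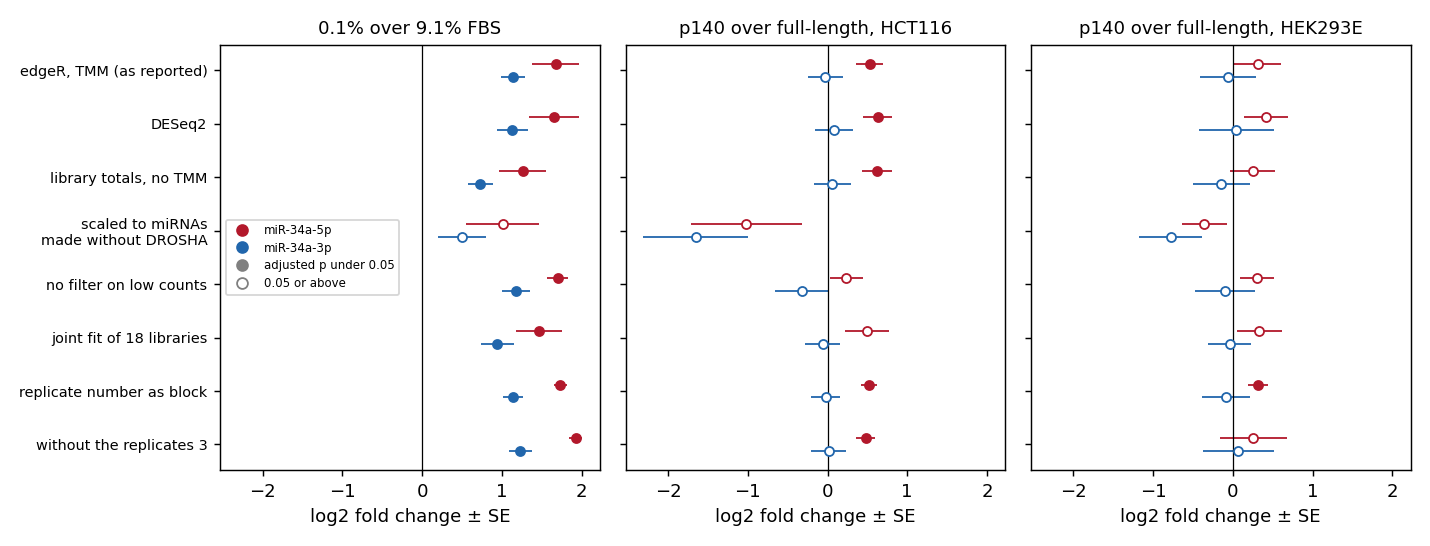
Log2 fold change ± SE of miR-34a-5p and miR-34a-3p in the same 3 comparisons (columns) under each processing setting (rows); filled symbols have an adjusted p under 0.05. Serum values stay above 0 in every row, while miR-34a-5p with p140 in HCT116 runs from -1.02 on the scale of miRNAs made without DROSHA to 0.63 in DESeq2.

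Between the KO cells of the 2 lines with full-length DROSHA put back, miR-34a was lower in HEK293E. The full-length libraries are the ones set against p140 above. miR-34a-5p had 3206, 1932 and 1840 CPM in HEK293E, against 4163, 4174 and 4931 CPM in HCT116, with no overlap. The log2 fold change was -1.98 ± 0.23 (SE, adjusted p = 5.5e-05 in edgeR's test). miR-34a-3p had 111, 116 and 92.3 CPM in HEK293E, against 156, 151 and 185 CPM in HCT116, also with no overlap. Its log2 fold change was -1.69 ± 0.22 (SE, adjusted p = 0.00011 in edgeR's test). WT HCT116 cells did not all lie above these HEK293E means of 2326 (5p) and 107 CPM (3p). The untreated library had 2324 and 35.0 CPM, and full serum averaged 1604 and 84.4 CPM. Starvation averaged more, 3852 and 140 CPM. Per 1000 reads of miRNAs made without DROSHA, all had more miR-34a-5p (184, 173 and 348, beside 20.4 in HEK293E).

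This comparison moves strongly with the scaling. Library totals gave -0.93 for miR-34a-5p (adjusted p = 0.0032) and -0.63 for miR-34a-3p (adjusted p = 0.029) in edgeR's test, while the median of all miRNAs moved to 1.11. Both arms were called under every alternative run, with the same sign. The background was 64% of 517 miRNAs called, 33.7% as higher and 30.4% as lower, 15.9% had no overlap in the downward direction, and 453 of the 517 had a higher log2 fold change than miR-34a-5p. The blood cell markers summed to 455 to 953 CPM in HEK293E and 37.8 to 43.2 CPM in HCT116. Most of the HEK293E sum was miR-486-5p, with 419, 919 and 628 CPM, against 12.6, 10.3 and 5.24 CPM in HCT116. The other blood cell markers overlapped between the lines or had no read. The neural markers miR-124-3p and miR-9-5p summed to 1182 to 2466 CPM in HEK293E and 111 to 285 CPM in HCT116, both with full-length DROSHA. Most of the HEK293E sum was miR-9-5p, with 2386, 1447 and 1099 CPM. In WT HCT116 cells the neural sum lay in much the same range as in HEK293E. It was 1742 CPM untreated, 1129 to 2551 CPM in full serum and 1079 to 1945 CPM under starvation. What part the neural markers had in the result was not tested.

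Loss of DROSHA could be set against WT in 1 library each, without a test. miR-34a-5p was 3.42-fold lower in CPM in KO cells with GFP than in untreated WT cells, with an interval of 2.33 to 5.25 from counting error alone. Since reads left after the loss of DROSHA come mostly from miRNAs that do not need it, the fold depends on the scale. Relative to miRNAs made without DROSHA, miR-34a-5p had 0.974 reads per 1000 such reads in the KO library with GFP and 184 in the WT library, a level 189-fold lower (128 to 289). The CPM fold was less than the median over 186 miRNAs that had 100 reads or more in WT cells, 4.71-fold, with quartiles of 2.75 and 6.93. The 186 leave out the miRNAs made without DROSHA. KO counts under 3 reads, among them 21 of 0, were set to 3 reads. Of the 186, 60 were reduced less than miR-34a-5p. For miRNAs of low level in WT cells the floor of 78.4 CPM caps the fold, so their place there was fixed in advance. For miR-34a-3p, with 0 reads in KO cells and 30 in WT cells, no fold in CPM can be given.

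The arms come from one hairpin and so from one DROSHA product, and the ratio of their reads, taken within a library, does not depend on how libraries are scaled. miR-34a-5p outnumbered miR-34a-3p in all libraries. In HCT116 KO cells there were 30.7, 44.8 and 43.6 reads of the 5p arm per read of the 3p arm with p140, against 26.6, 27.6 and 26.7 with full-length DROSHA. The full-length libraries lay close together, and every p140 library lay above them, also within each pair of the same number. The mean log2 ratio was higher by 0.53, with an exact two-sided permutation p of 0.10, the smallest that 3 against 3 libraries allow. Of 119 hairpins with both arms counted, 9.24% had no overlap in this comparison, and 13 had a larger difference.

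In HEK293E the ratio was 26.8, 23.5 and 35.0 with p140, against 28.8, 16.7 and 19.9 with full-length DROSHA, with overlap. The mean log2 ratio was higher by 0.39 with p140 (exact two-sided permutation p = 0.30), and 6.73% of 104 hairpins had no overlap. In WT HCT116 cells it was 23.3, 26.7 and 32.1 in 0.1% FBS, against 15.0, 15.9 and 24.6 in 9.1% FBS. The groups overlapped, but within each pair of the same number the starved library had the higher ratio. The mean log2 ratio was higher by 0.59 in 0.1% FBS (exact two-sided permutation p = 0.20), and 32.9% of 164 hairpins had no overlap. With the replicate number as a block, an exact two-sided sign-flip test gave 0.25 for HCT116 with p140 and for the serum groups, the smallest p that 3 pairs allow, and 0.50 for HEK293E. No exact test with 3 libraries a group can pass 0.05, and no adjustment over the 3 comparisons was made. Among libraries with a read of the 3p arm, untreated WT cells had the highest ratio, 66.4, from 30 such reads. The KO library with GFP had 26 reads of the 5p arm and 0 of the 3p arm, which gives no ratio.

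**Figure D5:**
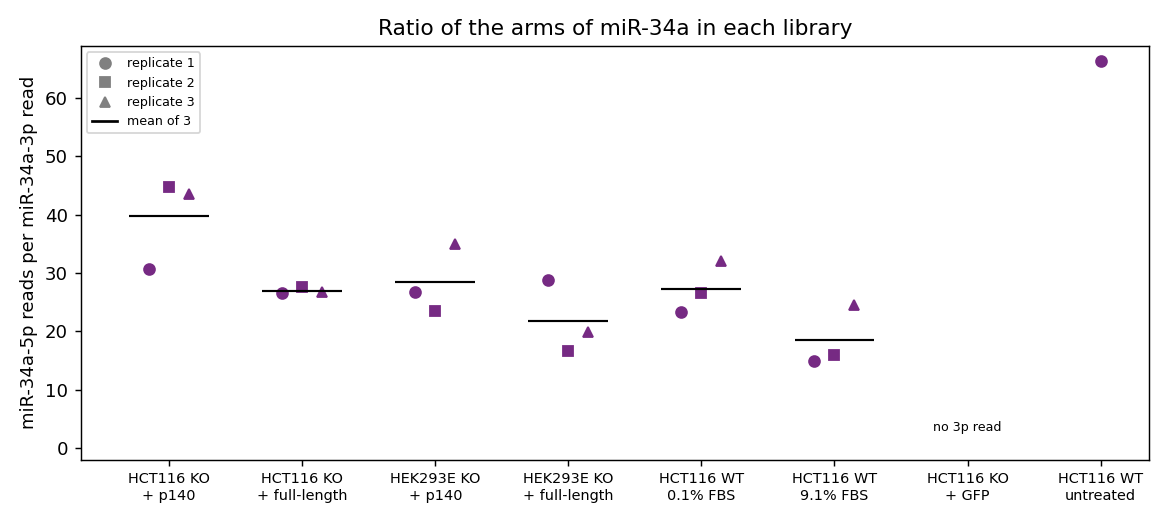
Reads of miR-34a-5p per read of miR-34a-3p in each library of the 8 groups; symbols mark the replicate number and bars the mean of 3 libraries. The ratio lies between 26.6 and 27.6 in HCT116 KO cells with full-length DROSHA and between 30.7 and 44.8 with p140, untreated WT cells stand highest of the libraries with a ratio at 66.4, and KO cells with GFP have no read of the 3p arm.

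The relatives of miR-34a by seed or family were scarce. Of 7 listed, miR-449a had the highest mean over all libraries, 61.9 CPM, and miR-34c-5p, which comes from the miR-34b and miR-34c locus on chromosome 11 and is likewise known as a p53 target, had 7.94 CPM. In the serum comparison 4 were tested and 1 was called, miR-34c-5p, as higher, no larger a share than the 25.5% called as higher over all 577 miRNAs. It had 10.2, 16.9 and 16.3 CPM in 0.1% FBS from 18, 41 and 46 reads, against 1.15, 3.21 and 1.56 CPM in 9.1% FBS from 2, 6 and 3 reads. It passed the filter on low counts only through the 0.1% FBS libraries, so the direction of its call was fixed in advance. The log2 fold change was 3.25 ± 0.40 (SE, adjusted p = 0.00047 in edgeR's test), and on the scale of miRNAs made without DROSHA it was 2.64 (adjusted p = 0.004). The median of the 4 tested was -0.09, beside -0.03 over all 577.

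miR-34b-5p, from the same locus as miR-34c-5p, fell under the filter on low counts, with 8, 11 and 14 reads in 0.1% FBS against 1, 1 and 1 in 9.1% FBS. None of the 3 tested members of the miR-449 cluster was called in the serum comparison by edgeR's test, also not at an unadjusted p under 0.05, nor by DESeq2. miR-449a, which has the seed of miR-34a-5p and is known from ciliated cells, had 35.1, 41.2 and 56.3 CPM in 0.1% FBS, against 43.0, 33.7 and 79.4 CPM in 9.1% FBS, with overlap (log2 fold change 0.19, adjusted p = 0.67 in edgeR's test). miR-449b-5p had 19.2, 20.2 and 25.5 CPM in 0.1% FBS, against 31.5, 29.4 and 50.8 CPM in 9.1% FBS, without overlap (log2 fold change -0.37, adjusted p = 0.27 in edgeR's test). miR-449c-5p had 21.5, 17.3 and 18.4 CPM in 0.1% FBS, against 35.5, 27.8 and 38.4 CPM in 9.1% FBS, also without overlap (log2 fold change -0.43, adjusted p = 0.11 in edgeR's test). With library totals these were called, at -0.77 and -0.84 (adjusted p = 0.032 and 0.0085). Whether these members differ from miR-34a in their response was not tested. Reads of miR-449a and miR-449b-5p may be hard to assign, since their mature sequences are nearly identical.

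With p140 in HCT116, 3 of the 7 relatives were tested and 1 was called, miR-449c-5p, as lower, beside 31.2% called as lower over all 446 miRNAs, about the same share. It had 9.77, 3.27 and 3.06 CPM with p140, from 3, 1 and 1 reads, against 35.3, 41.2 and 44.5 CPM with full-length DROSHA, from 28, 36 and 34 reads. It passed the filter on low counts only through the full-length libraries, so the direction of its call was fixed in advance. The log2 fold change was -2.95 ± 0.49 (SE, adjusted p = 0.0026 in edgeR's test), and it was negative and called on each scaling run. miR-449a, made from the same gene region, had 42.3, 108 and 138 CPM with p140, against 47.9, 57.2 and 106 CPM with full-length DROSHA, with overlap and a log2 fold change of 0.34 (adjusted p = 0.56 in edgeR's test). In HEK293E the 1 relative tested with p140, miR-449a, was not called (-0.20, adjusted p = 0.79). Between the lines, 1 of 3 tested was called, miR-449b-5p, lower in HEK293E at -2.74 ± 0.41 (SE, adjusted p = 0.0003 in edgeR's test), beside 30.4% called as lower over all 517 miRNAs. It had 4, 2 and 4 reads in HEK293E, against 35, 25 and 40 reads in HCT116. Only through the HCT116 libraries did it pass the filter, which fixed the direction of its call.

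Other miRNAs known to be transcribed under p53 were counted from a list of 13, chosen with earlier results of these data known. Its members are not all separate observations, since some are arms of the same hairpin or made in the same cluster. Their counts were not tested against the shares over all miRNAs. In the serum comparison 7 were tested, 5 were called as higher and 1 as lower, beside 25.5% and 20.3% over all miRNAs tested, with a median log2 fold change of 0.65 beside -0.03 over all 577 miRNAs. miR-194-5p had 370, 348 and 362 CPM in 0.1% FBS, against 96.8, 121 and 130 CPM in 9.1% FBS, a log2 fold change of 2.04 ± 0.15 (SE, adjusted p = 4.5e-05 in edgeR's test). miR-192-5p, known to be made in clusters with miR-194 and named here after its values were seen, had 122, 116 and 116 CPM in 0.1% FBS, against 53.3, 49.7 and 59.7 CPM in 9.1% FBS, and a log2 fold change of 1.52. Both stayed called on the scale of miRNAs made without DROSHA, at 1.38 and 0.88.

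The calls of the other tested members depended on the scaling or the tool. miR-107, a close paralog of the miR-103 family whose reads may be hard to separate, had a log2 fold change of 1.05, and 0.41 on the scale of miRNAs made without DROSHA, where it was not called (adjusted p = 0.21 in edgeR's test). The epithelial miR-200c-3p and miR-141-3p had 0.65 and 0.63, but with library totals 0.24 and 0.22, not called (adjusted p = 0.15 and 0.40 in edgeR's test), and on the other scale both were at -0.00. miR-22-3p was the one called lower, at -0.34 (adjusted p = 0.049 in edgeR's test, 0.053 in DESeq2), and at -0.74 with library totals (adjusted p = 0.0014). miR-22-5p, the other arm of that hairpin, was at -0.26 and not called (adjusted p = 0.13 in edgeR's test), but was called with library totals at -0.67 (adjusted p = 0.0024).

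With p140 in HCT116, of 7 tested members of the same list 0 were called as higher and 2 as lower by edgeR's test, beside 28.5% and 31.2% over all miRNAs tested, with a median of -0.33 beside -0.11 over all 446 miRNAs. DESeq2 called 3, also miR-22-3p, as higher at 0.49 (adjusted p = 0.012, beside 0.38 and 0.060 in edgeR's test). Lower in edgeR's test were miR-192-5p, named after its values were seen, at -1.98 ± 0.44 (SE, adjusted p = 0.0086 in edgeR's test), and miR-200c-3p at -1.01 ± 0.25 (SE, adjusted p = 0.011 in edgeR's test). miR-192-5p had 3, 3 and 7 reads with p140, against 29, 45 and 50 reads with full-length DROSHA. It passed the filter on low counts only because of its reads with full-length DROSHA. In HEK293E, 8 were tested with p140 and 0 were called in either direction by edgeR's test, 0 at an unadjusted p under 0.05 and 0 by DESeq2, with a median of 0.01. Between the lines 8 were tested, 5 were lower in HEK293E and 1 was higher, beside 30.4% and 33.7% over all 517 miRNAs. miR-22-3p (-2.92), miR-22-5p (-2.69), miR-200c-3p (-1.91), miR-141-3p (-1.65) and miR-194-5p (-0.83) were the lower ones. The miR-22 arms come from the same hairpin and are not separate observations. In the HCT116 libraries compared, miR-200c-3p had 197, 192 and 152 CPM, beside 25988 CPM in untreated WT HCT116 cells. miR-141-3p had 63.1, 79.0 and 81.2 CPM there, beside 11167 CPM in untreated WT HCT116 cells. miR-215-5p, named after its values were seen, was the higher one, with 13, 5 and 25 reads in HEK293E against 2, 1 and 0 reads in HCT116. It passed the filter on low counts only through the HEK293E libraries. With library totals miR-194-5p turned to 0.23.

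Another list held 6 arms of miRNAs whose DROSHA step p53 is known to aid, from the hairpins of miR-16, miR-143 and miR-145. In 0.1% against 9.1% FBS, 5 were tested, 1 was called higher and 1 lower, beside 25.5% and 20.3% over all miRNAs tested, with a median of -0.03 for the list and for all. miR-143-3p had 36.2, 46.6 and 35.8 CPM in 0.1% FBS, against 13.2, 11.2 and 13.0 CPM in 9.1% FBS, a log2 fold change of 2.07 ± 0.20 (SE, adjusted p = 0.00019 in edgeR's test). miR-145-3p was the lower one, at -0.66, while miR-145-5p from the other arm of the same hairpin was at 0.03 and miR-16-5p at -0.03. With p140 in HCT116, 4 were tested and 1 was called, miR-145-5p, higher at 1.08 ± 0.37 (SE, adjusted p = 0.034 in edgeR's test), a sign that turned to -0.68 on the scale of miRNAs made without DROSHA. Over all 446 miRNAs 28.5% were called as higher. With p140 in HEK293E, 2 were tested and 0 called by edgeR's test, with 0 at an unadjusted p under 0.05 and 0 by DESeq2. Between the lines 3 were tested and 1 was called, miR-145-5p, lower in HEK293E with 0, 1 and 1 reads, against 125, 128 and 63 reads in HCT116, beside 30.4% called as lower over all 517 miRNAs. It passed the filter on low counts only through the HCT116 libraries.

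Across the 20 libraries, the miRNAs whose levels ran most like each arm were named from 260 with a mean of at least 100 CPM, by Pearson's r of log2(CPM + 1). For miR-34a-5p they were miR-181a-5p (0.77), miR-210-3p (0.77), miR-181a-3p (0.75), miR-34a-3p (0.73) and miR-130a-3p (0.73). For miR-34a-3p they were miR-574-3p (0.96), miR-96-5p (0.94), miR-3200-3p (0.93), miR-301b-3p (0.92) and miR-455-5p (0.92). The own partner arm was thus among the closest for miR-34a-5p but not for miR-34a-3p. The libraries share groups and depth, and the KO library with GFP, in which miR-34a-3p had 0 reads, weighs heavily in these values, which are a description only.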

How the data were processed

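Small RNA was sequenced from 20 libraries. Per the labels' protocols, total RNA was mixed with spike-in RNAs, size-selected on a gel, ligated to randomized adaptors and run on a MiSeq. The submitters' processing notes name cutadapt, STAR, bedtools and hg38. Tool versions were not given in the sources used here. Raw read counts were deposited by the authors, 2813 rows per library, each a mature miRNA within a hairpin. For the 167 miRNAs with several hairpins the copy with the highest total was kept. Spike-in counts were not analysed here. Depth was 38288 to 2822317 reads.

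Counts were tested in edgeR 4.0.16 (R 4.3.3) with TMM, filterByExpr at a minimum count of 10, the quasi-likelihood F test and Benjamini-Hochberg adjustment over all miRNAs tested, with a threshold of 0.05. Alternatives were DESeq2 1.42.0, library totals, scaling to miRNAs made without DROSHA, no filter, a joint fit, the replicate block and left-out libraries. The fits were tested on simulated data. Arm ratios used a pseudocount of 0.5 reads for the log2 values. Same-numbered libraries deviated together (miRNAs of at least 50 CPM) in the p140 and serum comparisons. Correlations were 0.40 to 0.77 in HCT116, 0.33 to 0.56 in HEK293E and 0.52 to 0.87 in the serum groups, and the numbers were taken to pair the libraries. That pairing is uncertain outside HEK293E. The 0.1% FBS library numbered 2 correlated more with another number (0.75) than with its own (0.52). HCT116 p140 libraries numbered 1 and 2 reached 0.50 and 0.36 with another number, beside 0.61 and 0.40 with their own. Members and lists were chosen with earlier results of these data known. Values are given for the arms and for at most 6 miRNAs a list, those of highest mean CPM, and exceptions are marked.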

Additional observations from a re-analysis of the deposited data

How the results depend on the processing

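All values are log2 fold changes unless a count is named, and the cause of a change was not tested. With the replicate block the call changed for miR-34a-5p with p140 in HEK293E, at 0.31, and for no other fold change of either arm. Counts of miRNAs called under the block were 183 in place of 110 there, and 102 in place of 17 for the difference in p140 effect. Scaled to miRNAs made without DROSHA, miR-34a-5p with p140 gave -1.02 in HCT116 and -0.36 in HEK293E, the difference in p140 effect gave 0.66 for miR-34a-5p and 0.90 for miR-34a-3p, and the serum values of 1.01 and 0.50 were no longer called. On that scale the counts called were 170 in HCT116 (0 higher and 170 lower, beside 127 and 139), 216 in HEK293E (4 and 212, beside 22 and 88) and 0 for the difference, and the ratio of the KO library with GFP to WT for miR-34a-5p was 0.0053. In the serum comparison library totals called 73 higher and 248 lower, beside 147 and 117. miR-34a-5p with p140 in HCT116 was not called without the filter (0.24) or in the joint fit (0.49). miR-34a-3p with p140 changed sign to 0.083 in HCT116 and 0.043 in HEK293E with DESeq2, to 0.062 in HCT116 with library totals, and to 0.13 for the difference without the filter. With libraries left out, miR-34a-5p with p140 ranged from 0.36 to 0.66 in HCT116 and from 0.06 to 0.61 in HEK293E, and miR-34a-3p from -0.12 to 0.015 and from -0.33 to 0.17. The difference ranged from -0.58 to 0.24 for miR-34a-5p and from -0.42 to 0.17 for miR-34a-3p. Counts called ranged from 184 to 388 in HCT116, from 47 to 129 in HEK293E, from 5 to 85 for the difference and from 205 to 345 in the serum comparison. Few reads of miR-34a-3p limit its intervals, most of all in HEK293E and in the KO library with GFP.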
